A study of Homo sapiens with 8 samples.

Results

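SKNAS is a human neuroblastoma cell line, and SKNAS/shHIF1a is a derivative of it with a stable knockdown of HIF1A. Their transcript responses to ciclopirox were set side by side on 4 Affymetrix expression arrays, out of 8 arrays in the series. Cells in serum-containing RPMI medium received vehicle or ciclopirox (2.5 µM), each for 48 h, and 1 array was run per line and treatment. The other 4 arrays, of the neuroblastoma lines NB1691 and SKNBE2 with the same 2 treatments, serve here as context. For every gene the response is the log2 signal under ciclopirox minus the log2 signal under vehicle, and the difference in response is the response of SKNAS/shHIF1a minus that of SKNAS. The signals are log2 values by robust multi-array average, as deposited. Of 19774 genes with a probe set, 14517 reached the level filter and are described. The question is which transcripts answered the drug more, less or the other way when HIF1A was knocked down. No test could be made, because 4 arrays leave 0 residual degrees of freedom for this contrast, and no p-value is given. In place of a test, "rose", "fell", "higher" and "lower" are used where arrays or responses stand at least 2-fold apart (log2 1). Every such statement compares these arrays and has no replicate check. The labels name no control hairpin line, so an effect of HIF1A cannot be told apart from an effect of carrying the hairpin or of growing as a separate line.

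Hypoxia-inducible factor (HIF) is a pair of proteins, an oxygen-regulated alpha subunit (HIF1A, or EPAS1, also called HIF2A) and the stable subunit ARNT. Prolyl hydroxylases that need iron and oxygen mark the alpha subunit for destruction through VHL, so iron chelators and low oxygen both let it accumulate and switch on genes of glycolysis, blood vessel growth and oxygen sensing. Ciclopirox is an antifungal agent that chelates iron. In neuroblastoma, a childhood tumour of the sympathetic nervous system, HIF1A and EPAS1 are both present and share part of their targets.

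The targeted gene was checked first. HIF1A had log2 levels of 12.25 under vehicle and 11.94 under ciclopirox in SKNAS, and of 11.71 and 11.09 in SKNAS/shHIF1a. Both arrays of the derivative were below both arrays of the parent, by -0.53 under vehicle and -0.85 under ciclopirox on the log2 scale, which is less than 2-fold. HIF1A had 1 probe set above the filter, and the protein was not measured. MYC, which encodes c-Myc, had levels of 10.16 and 9.10 in the parent and of 9.86 and 9.23 in the derivative, while MYCN, which encodes N-Myc, had levels of 2.77 and 3.36 in the parent and of 5.41 and 5.65 in the derivative. The labels give SKNAS the Myc status c-Myc and SKNAS/shHIF1a the status N-Myc. For context, NB1691 and SKNBE2 under vehicle had MYCN levels of 12.05 and 12.48 and MYC levels of 2.70 and 2.66. The MYC levels of the derivative were thus near those of the parent, and its MYCN levels were far below those of NB1691 and SKNBE2. Among the 14 neuroblastoma markers described, GATA3, a transcription factor of sympathetic neurons, lay between 9.74 and 11.10 on the 4 arrays, and UCHL1, a neuronal hydrolase, between 11.45 and 11.97. TH, the first enzyme of catecholamine synthesis, stayed between 3.15 and 3.59, and DBH, a later enzyme of that route, between 4.37 and 5.72.

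The lines differed before treatment: 957 genes (6.59% of those described) stood at least 2-fold apart between the vehicle arrays and 1202 (8.28%) between the ciclopirox arrays. Array medians lay between 3.47 and 3.52, and the difference in response had a median of 0.00 and an SD of 0.507 over genes. Probe sets below the level filter had an SD of 0.295 and 0.564% past a 2-fold difference. They were selected for low signal on these arrays, so they cannot measure noise at the levels of the described genes. Over all 102 array control probe sets the SD was 0.516, and 16.7% were past a 2-fold difference. The control transcripts went 2 ways. The 18 probe sets for hybridization controls, which are added after labelling, had a median difference in response of 0.07, while 22 probe sets for bacterial poly-A transcripts, which can be added to the RNA before labelling, had a median of -1.16 and were all below 0. Their median response was 0.05 in SKNAS, 0.06 in NB1691 and -0.06 in SKNBE2, against -1.12 in SKNAS/shHIF1a. Scaling the arrays to the poly-A transcripts would move the median difference of all genes to 1.25. All directions below are therefore relative to the median gene, and the part of the poly-A shift in them was not tested.

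Ciclopirox moved more genes past 2-fold in the derivative than in the parent. In SKNAS 490 genes rose (3.38% of those described) and 235 fell (1.62%), and in SKNAS/shHIF1a 802 rose (5.52%) and 625 fell (4.31%). Of these, 358 rose in both lines and 120 fell in both, and 0 genes rose in one line and fell in the other. The difference in response was at least 2-fold for 782 genes (5.39%), with 384 higher (2.65%) and 398 lower (2.74%) in the derivative, and at least 4-fold for 102 genes (0.703%). Of the 782, 496 responded more in the derivative: 279 had a larger rise there (1.92%) and 217 a larger fall (1.49%). A smaller rise was seen for 58 genes (0.400%) and a smaller fall for 33 (0.227%). Opposite responses, of at least 0.5 log2 in each line, were seen for 20 genes that went up in the derivative (0.138%) and 53 that went down there (0.365%), and 122 genes (0.840%) met none of these definitions.

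**Figure D1:**
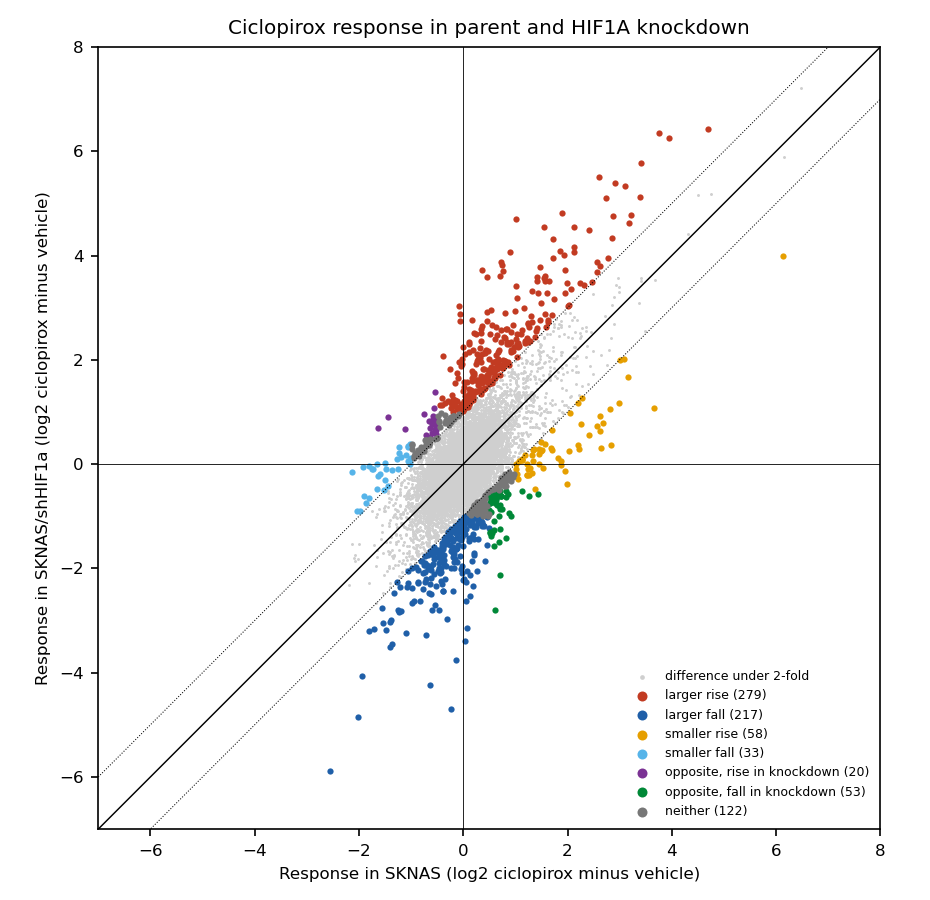
Response to ciclopirox of 14517 genes, 1 point per gene, with the log2 response in SKNAS on the horizontal axis and that in SKNAS/shHIF1a on the vertical axis. The solid line marks equal responses and the dotted lines a 2-fold difference. The 279 genes with a larger rise (red) and the 217 with a larger fall (blue) lie off the diagonal on the side of the derivative, and the 58 with a smaller rise (orange) lie toward the axis of the parent.

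The classes differed in which arrays set the lines apart. Among the 58 genes with a smaller rise, 30 differed at least 2-fold between the ciclopirox arrays and not between the vehicle arrays, and their median response was 1.63 in SKNAS and 0.26 in SKNAS/shHIF1a. Among the 279 genes with a larger rise the same held for 126, with median responses of 0.53 and 2.07. The larger falls were as often a matter of the starting level: for 70 of 217 the vehicle arrays differed and the ciclopirox arrays did not, for 72 the reverse, and the median responses were -0.23 and -1.73. In 52 of these 217 genes both arrays of the parent were below log2 4, a level near background, so a fall there could not have been seen. Both arrays of the parent were also below log2 4 for 52 of the 279 larger rises, and both arrays of the derivative for 22 of the 58 smaller rises and 10 of the 33 smaller falls. The class medians of the response stayed between -0.24 and 0.47 in NB1691 and SKNBE2. Where genes past 2-fold had another probe set above the filter (349 genes, 572 probe sets), 83.9% of these had the same sign, against 66.4% over all genes, and 34.1% had the same sign and were past 2-fold.

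Targets of HIF had a smaller rise in the derivative as a group, though many kept most of it. All 53 listed targets were described, with a median response of 1.67 in SKNAS and 0.88 in SKNAS/shHIF1a, and a median difference of -0.55, or 0.70 with arrays scaled to the poly-A transcripts. The difference was below 0 for 41 of 53 (49.6% of all genes). The response was lower by 2-fold for 14 (2.74% of all genes) and higher by 2-fold for 1 (2.65% of all genes). In SKNAS 38 of the targets rose (3.38% of all genes). Of those, 22 also rose in the derivative, beside 73.1% of all genes that rose in SKNAS. Of the 38, 12 were lower by 2-fold in the derivative, or 31.6%, beside 61 of all 490 genes that rose in SKNAS, or 12.4%. For 9 of the 14 lower targets the vehicle arrays agreed within 0.5 log2, and 10 were at least 2-fold lower under ciclopirox.

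**Figure D2:**
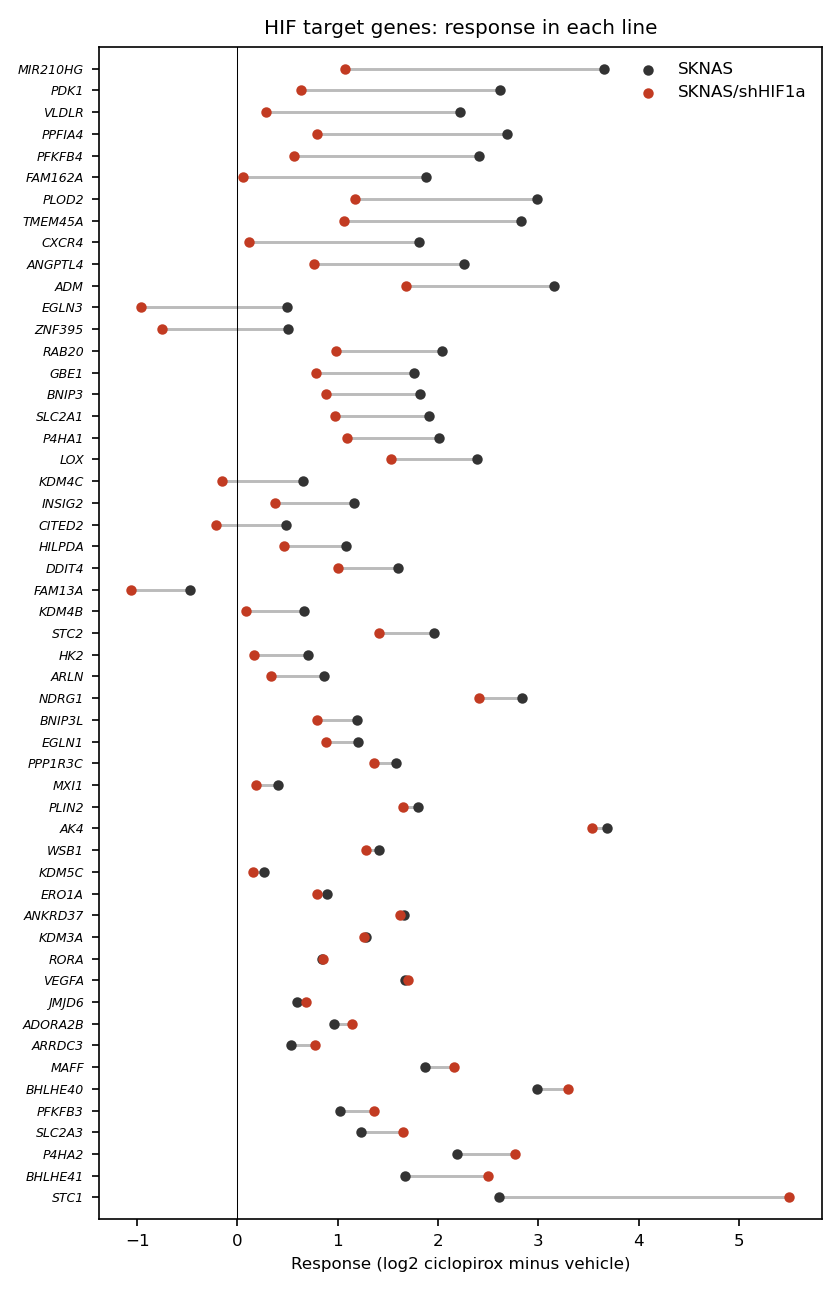
Response of the 53 HIF targets, 1 row per gene, sorted by the difference in response, with the log2 response on the horizontal axis, SKNAS in black and SKNAS/shHIF1a in red. The red point lies left of the black one for 41 targets, VEGFA and KDM3A have both points nearly on top of each other, and STC1 stands alone on the right at 5.50. These positions hold for the deposited scale. With arrays scaled to the poly-A transcripts the list median turns from -0.55 to 0.70.

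The lower targets were led by the host transcript of the hypoxia microRNA miR-210. MIR210HG had levels of 3.34 and 7.0 in SKNAS under vehicle and ciclopirox, and of 3.32 and 4.39 in SKNAS/shHIF1a. Both vehicle arrays were below log2 4, near background, so the starting levels cannot be compared. It rose by 3.65 in the parent and 1.07 in the derivative, a difference of -2.58. Enzymes that steer glucose carbon were also among the lower targets. PDK1, the kinase that keeps pyruvate out of the mitochondrion, went from 7.86 to 10.48 in SKNAS and from 7.54 to 8.18 in SKNAS/shHIF1a, a difference of -1.98, and its other probe set gave -2.14. PFKFB4, which sets the level of a glycolysis activator, went from 5.03 to 7.44 in the parent and from 4.76 to 5.33 in the derivative, a difference of -1.85, with -0.21 at its other probe set.

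Mitochondrial, membrane and matrix targets were in the same group. FAM162A, a mitochondrial protein linked to cell death in hypoxia, had levels of 10.58 and 12.46 in the parent and of 10.34 and 10.40 in the derivative, with responses of 1.88 and 0.06, and its other 3 probe sets gave differences of -2.85 to -1.74. PLOD2, which hydroxylates lysine in collagen, had levels of 2.52 and 5.50 against 2.66 and 3.84, with both vehicle arrays near background and a difference of -0.38 at its other probe set. TMEM45A, a membrane protein, had 6.66 and 9.48 against 5.49 and 6.55. VLDLR, a lipoprotein receptor, had responses of 2.22 and 0.29 in parent and derivative, PPFIA4, a scaffold protein of the liprin family, of 2.68 and 0.79, and RAB20, a small GTPase, of 2.04 and 0.98.

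Some targets differed in where they started, and others parted under ciclopirox. ADM, the vessel-dilating peptide adrenomedullin, had levels of 6.85 and 10.01 in SKNAS and of 8.07 and 9.74 in SKNAS/shHIF1a, a difference in response of -1.48. The lines stood 1.22 apart under vehicle and -0.27 under ciclopirox, so the arrays with the drug were the closer pair. CXCR4, the receptor of the chemokine CXCL12, had 5.63 and 7.44 in the parent against 8.61 and 8.73 in the derivative, where both arrays were higher than either of the parent. ANGPTL4, a lipase inhibitor, had responses of 2.26 and 0.76, with line gaps of 0.41 under vehicle and -1.09 under ciclopirox. ZNF395, a zinc finger protein, had responses of 0.51 and -0.75, with line gaps of -0.27 under vehicle and -1.53 under ciclopirox. EGLN3 had responses of 0.49 and -0.96, with line gaps of 0.80 and -0.65.

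Short stretches upstream of start sites were read for the letters ACGTG, a form of the core of the HIF response element, on either strand (CACGT when it lies on the other strand), to show what these targets carry there. The sequences are from RefSeq (GRCh38.p14), in a window from 250 bases before to 50 bases after each start, and capitals mark each match. CACGTG, which reads the same on both strands, is also the E-box bound by Myc and by the BHLHE40 family. The first 5 stretches belong to targets with a lower response in the derivative and the last 2 to targets that kept theirs.
MIR210HG (chr11:568603-568647, minus strand): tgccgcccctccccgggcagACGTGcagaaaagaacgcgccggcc
PLOD2 (chr3:146161306-146161404, minus strand): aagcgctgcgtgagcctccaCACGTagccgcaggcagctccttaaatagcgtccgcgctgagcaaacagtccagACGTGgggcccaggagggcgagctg
PPFIA4 (chr1:203026352-203026397, plus strand): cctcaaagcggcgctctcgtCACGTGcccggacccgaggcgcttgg
FAM162A (chr3:122384078-122384122, plus strand): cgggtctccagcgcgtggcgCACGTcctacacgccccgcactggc
ANGPTL4 (chr19:8363905-8363945, plus strand): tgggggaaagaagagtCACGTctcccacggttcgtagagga
ANKRD37 (chr4:185396659-185396722, plus strand): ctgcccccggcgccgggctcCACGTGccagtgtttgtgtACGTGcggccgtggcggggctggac
BHLHE40 (chr3:4979187-4979312, plus strand): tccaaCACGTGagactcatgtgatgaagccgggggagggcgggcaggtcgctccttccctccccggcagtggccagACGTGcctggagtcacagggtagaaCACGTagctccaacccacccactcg

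The letters were in the window of 26 of 44 targets with a promoter entry (59.1%), beside 26.1% of the 11666 described genes with an entry and 21.6% of 27305 promoters in all. They were present in 5 of 12 lower targets with an entry and in 21 of the 32 targets that were not lower by 2-fold. CACGTG was in 7.43% of all promoters, in 1 of the 12 and in 13 of the 32. The windows of ADM, CXCR4, EGLN3, PDK1, PFKFB4, TMEM45A and VLDLR hold no match to these letters. Other forms of the core were not searched for, so this says nothing of other forms in these windows or of sites elsewhere. In the class with a smaller rise 17 of 49 windows held the letters (34.7%), in the larger rises 33 of 198 (16.7%) and in the larger falls 30 of 176 (17.0%). These counts are a description of letters and not of binding.

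Other HIF targets rose in both lines with differences short of 2-fold, and several had nearly equal responses. VEGFA, the growth factor of blood vessels, went from 9.65 to 11.32 in SKNAS and from 9.97 to 11.67 in SKNAS/shHIF1a. Its difference was 0.03, with 0.02 to 0.88 at its other 3 probe sets. ANKRD37, an ankyrin repeat protein, had responses of 1.66 and 1.62, and KDM3A, a histone demethylase, of 1.29 and 1.26. AK4, a mitochondrial adenylate kinase, had responses of 3.68 and 3.53, with differences of -0.62 to -0.46 at its other 3 probe sets. The repressor BHLHE40 had responses of 2.99 and 3.30, and NDRG1, a stress-response protein, of 2.84 and 2.41. BHLHE41, a relative of BHLHE40, had responses of 1.67 and 2.50, a difference of 0.83. Between these and the lower targets lay BNIP3, a mitophagy receptor (1.82 and 0.88), SLC2A1, the glucose transporter GLUT1 (1.91 and 0.97), and P4HA1, a collagen prolyl hydroxylase (2.0 and 1.09), each short of a 2-fold difference. STC1, the calcium-regulating hormone stanniocalcin, was the 1 target with a higher response: its levels were 8.44 and 11.05 in the parent and 4.64 and 10.14 in the derivative, a difference of 2.89. The line gap of STC1 was -3.80 under vehicle and -0.92 under ciclopirox, and its other 2 probe sets gave 0.20 and 2.32.

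Subunits and oxygen sensors were mixed. EPAS1 had levels of 7.91 and 9.48 in SKNAS and of 8.57 and 10.54 in SKNAS/shHIF1a, so it rose in both lines and both arrays of the derivative were above the matching parent array. HIF3A, another alpha subunit, had levels of 5.48 and 6.50 against 4.79 and 7.09, a difference of 1.27, with 0.22 to 0.88 at its other 3 probe sets. The prolyl hydroxylase EGLN3 had 7.22 and 7.71 in the parent and 8.02 and 7.06 in the derivative, a difference of -1.46, with -1.79 at its other probe set. EGLN1, the main prolyl hydroxylase, had responses of 1.20 and 0.88, and EGLN2, ARNT, VHL and HIF1AN, the asparagine hydroxylase of HIF, had differences between -0.29 and 0.32. Of 11 genes linked mainly to HIF2 in the list used, 9 had a difference above 0 (50.4% of all genes), and the median was 0.40. By 2-fold, 0 of 11 were higher (2.65% of all genes) and 1 was lower (2.74% of all genes). CCND1, cyclin D1, had levels of 10.35 and 10.42 in the parent and of 9.10 and 10.03 in the derivative, a difference of 0.86, and ANGPTL4 was the 1 lower member.

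Glycolysis enzymes had small differences, with a median of -0.20 over 19 genes. Of these, 2 were lower by 2-fold (2.74% of all genes), PDK1 and ALDOC. ALDOC, the aldolase of brain, went from 6.37 to 8.99 in SKNAS and from 6.22 to 7.14 in SKNAS/shHIF1a, a difference of -1.70. LDHA, lactate dehydrogenase, had levels of 13.06 and 13.40 against 12.86 and 13.00, a difference of -0.20. For PGK1, phosphoglycerate kinase, the brightest probe set gave -0.46 and the other 5 gave -2.25 to -0.80, so the value given for it is the smallest in size of the 6. Collagen-modifying enzymes, which also use iron and 2-oxoglutarate or copper, had a median of -0.64 over 11 genes. With arrays scaled to the poly-A transcripts that median was 0.61. By 2-fold, 0 were higher (2.65% of all genes) and 3 were lower (2.74% of all genes). These were PLOD2, PLOD1, which also hydroxylates lysine (7.35 and 8.35 in SKNAS, 7.53 and 7.44 in SKNAS/shHIF1a), and the lysyl oxidase LOXL3 (7.33 and 8.15 against 7.07 and 6.56). P4HA2, a prolyl hydroxylase, went the other way with responses of 2.18 and 2.76, and its other probe set gave -0.07.

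Histone demethylases, most of which also use iron and 2-oxoglutarate, did not differ by 2-fold in any of the 23 described (5.39% of all genes). The highest difference, 0.88, was that of KDM1B, which uses a flavin instead. KDM4B, also called JMJD2B and named in the title of the series, had levels of 8.36 and 9.02 in SKNAS and of 8.28 and 8.37 in SKNAS/shHIF1a. Its response was 0.66 in the parent and 0.09 in the derivative, and its other 4 probe sets gave differences of -0.42 to 0.03. KDM4C had responses of 0.66 and -0.16, but its other 3 probe sets gave 0.08 to 0.44, which is the other sign. MYC had responses of -1.06 and -0.63, so it fell in the parent, and the difference was 0.43. MYCL, another Myc gene, had levels of 4.70 and 3.71 against 6.67 and 4.67, a difference of -1.01 that becomes 0.24 with arrays scaled to the poly-A transcripts. Of 43 Myc targets of ribosome and nucleotide synthesis 0 differed by 2-fold (5.39% of all genes), with a median of 0.11.

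Genes of mitosis leaned one way. The difference in response was below 0 for 37 of 37, against 49.6% of all genes. The response was lower by 2-fold for 16 (2.74% of all genes) and higher for 0 (2.65% of all genes). The median response was 0.11 in SKNAS and -0.75 in SKNAS/shHIF1a. The median difference was -0.97, which turns to 0.28 with arrays scaled to the poly-A transcripts. By construction that scaling leaves every list median unchanged relative to the median gene, here at -0.97. The lines were close under vehicle, with a median gap of -0.13, and apart under ciclopirox, at -1.04. AURKA, a kinase of the spindle poles, had levels of 10.50 and 10.53 in the parent and of 10.32 and 9.04 in the derivative, with -1.16 at its other probe set. KIF20A, a kinesin of late mitosis, had 9.93 and 10.27 against 9.96 and 8.84, the list's lowest difference at -1.47. CCNB1, cyclin B1, had responses of -0.16 and -1.19, TOP2A, the topoisomerase of dividing cells, of 0.34 and -0.70, and CKS2, a cyclin-dependent kinase subunit, had the difference nearest 0 at -0.45. The median response of the list was 0.22 in NB1691 and -0.57 in SKNBE2.

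DNA replication genes had the same sign with smaller differences. Of 43, 41 were below 0 (49.6% of all genes) and 4 were lower by 2-fold (2.74% of all genes). The median was -0.54, or 0.71 with arrays scaled to the poly-A transcripts. The median response was -0.22 in SKNAS and -0.75 in SKNAS/shHIF1a. CCNE2, cyclin E2, had levels of 8.59 and 8.77 in the parent and of 8.69 and 7.51 in the derivative, a difference of -1.36, and its other probe set gave -1.29. RRM2, the ribonucleotide reductase subunit that carries iron, had 11.14 and 11.79 against 11.20 and 10.60, and TK1, thymidine kinase, 9.09 and 10.05 against 8.17 and 7.93. GINS2, part of the replicative helicase, had a difference of -1.16 at its brightest probe set and of -0.11 and -0.01 at the others. Among cyclin-dependent kinase inhibitors, CDKN1A, the inhibitor p21, rose in both lines by 2.89 and 3.20, and CDKN2B, the inhibitor p15, had levels of 4.93 and 6.50 in SKNAS and of 5.37 and 8.97 in SKNAS/shHIF1a, a difference of 2.04 with 0.56 at its other probe set.

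**Figure D3:**
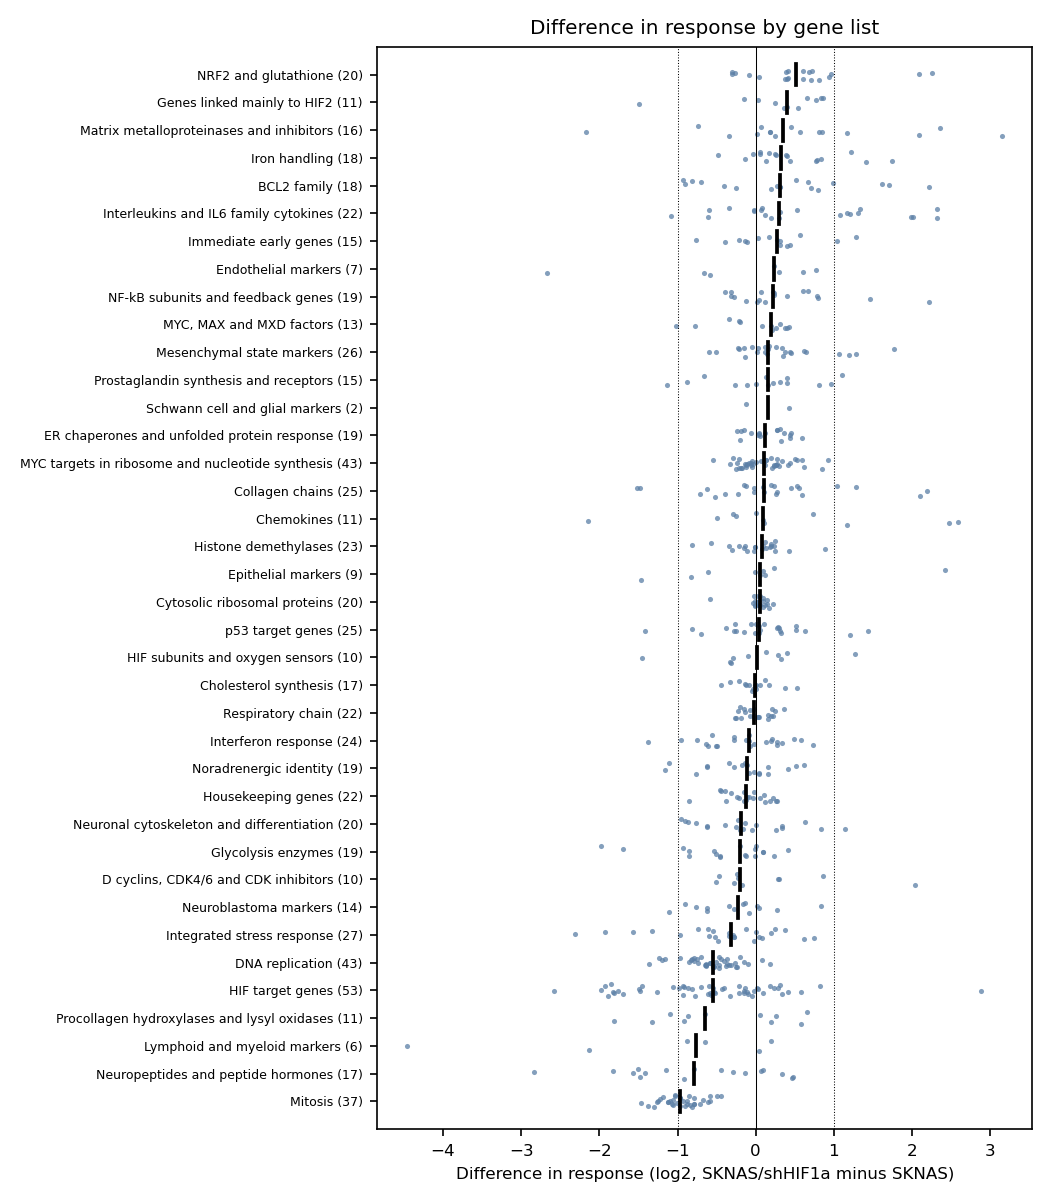
Difference in response of the described members of 38 gene lists, 1 point per gene, on the log2 scale as SKNAS/shHIF1a minus SKNAS, with the number of members in brackets, black bars at list medians and dotted lines at a 2-fold difference. The mitosis list has its median at -0.97 with all 37 points left of 0, and the NRF2 list has its median at 0.51. With arrays scaled to the poly-A transcripts every point moves right by about the shift of the median gene, 1.25, and the mitosis median turns to 0.28.

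Cytokine genes rose more in the derivative in several cases. Among 22 interleukins and related cytokines described, 9 were higher by 2-fold (2.65% of all genes) and 1 was lower (2.74% of all genes). The median response was 0.73 in SKNAS and 1.42 in SKNAS/shHIF1a, and the median difference was 0.30. Of the 9, CSF1, a colony-stimulating factor, was higher by 1.21, with -0.24 and -0.04 at its other 2 probe sets. IL11, a cytokine of the IL6 family, had levels of 5.64 and 9.58 in the parent and of 3.55 and 9.81 in the derivative, so the lines met under ciclopirox from different starts, and its other probe set gave 0.16. TNF, the inflammatory tumour necrosis factor, had 3.56 and 5.03 against 3.38 and 7.16, with both vehicle arrays below log2 4, near background. IL1B, a fever-inducing interleukin, had 7.46 and 10.23 against 8.28 and 12.23, a difference of 1.17. LIF, a survival factor of the same family as IL11, had responses of 2.57 and 3.88, IL6R, a receptor chain for IL6, of 1.56 and 3.57, and TSLP, a lymphopoietin of epithelia, of 0.51 and 2.49. The exception was IL1A, with 5.45 and 8.53 against 8.22 and 10.23, a difference of -1.08 that becomes 0.17 with arrays scaled to the poly-A transcripts. In NB1691 and SKNBE2 the median response of the list was 0.00 and -0.04.

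Chemokine genes split. CCL5, which draws T cells and monocytes, had levels of 2.87 and 6.62 in SKNAS and of 2.90 and 9.24 in SKNAS/shHIF1a. Its difference was 2.59, and its other 2 probe sets gave 3.02 and 3.62. Both vehicle arrays of CCL5 were below log2 4, near background. CCL7, a monocyte chemokine, had 4.06 and 6.96 against 3.84 and 9.22, a difference of 2.48, and CX3CL1, fractalkine, had responses of 1.69 and 2.86. CXCL10, an interferon-induced chemokine, rose in both lines but less in the derivative, from 3.90 to 10.02 in the parent and from 5.66 to 9.65 in the derivative. Of the 11 described members 3 were higher (2.65% of all genes) and 1 lower (2.74% of all genes) by 2-fold. The other 8 of 19 members on the array did not reach the level filter.

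Feedback genes of NF-kB, the transcription factor of inflammation, rose in similar number: 15 of 19 in SKNAS (3.38% of all genes) and 15 in SKNAS/shHIF1a (5.52% of all genes). The response of 2 was higher by 2-fold (2.65% of all genes). These were BCL2A1, a survival protein (2.55 and 5.66 against 2.50 and 7.83), and REL, a subunit of the factor (5.03 and 6.07 against 4.11 and 6.60). Both vehicle arrays of BCL2A1 were below log2 4, near background. Of 24 interferon response genes 0 were higher (2.65% of all genes) and 1 was lower (2.74% of all genes). The lower gene was IFI44, with levels of 8.31 and 7.95 in the parent and 9.55 and 7.81 in the derivative. Its other probe set gave 0.17. Of 15 prostaglandin genes 1 was higher (2.65% of all genes) and 1 lower (2.74% of all genes). PTGES, a prostaglandin E synthase, was higher, with responses of 2.33 and 3.43. PTGFR, a prostaglandin receptor, was lower by -1.13, which becomes 0.12 with arrays scaled to the poly-A transcripts. Among 15 immediate early genes, which answer growth signals first, FOSL1 and KLF2 were higher (2.65% of all genes). FOSL1 had 6.28 and 7.33 against 5.18 and 7.51.

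In the list of matrix metalloproteinases, other matrix proteases and their inhibitors and partners, 4 of 16 described were higher (2.65% of all genes) and 1, an inhibitor, was lower (2.74% of all genes). MMP9, a gelatinase, had levels of 4.21 and 7.62 in SKNAS and of 4.45 and 10.23 in SKNAS/shHIF1a, a difference of 2.36. MMP1, a collagenase, had 7.57 and 9.98 against 7.58 and 12.08, and MMP10, a stromelysin, 2.77 and 3.50 against 2.86 and 6.74. For these 3 genes the vehicle arrays of the lines were within 0.24 of each other and the ciclopirox arrays were apart. Both vehicle arrays of MMP10 were below log2 4, near background, so its starting levels cannot be compared. PLAU, the urokinase that activates plasmin, was higher by 1.17 at its brightest probe set and had -2.12 at the other. TIMP3, an inhibitor of matrix metalloproteinases, had 6.46 and 7.05 in the parent and 9.99 and 8.41 in the derivative, a difference of -2.17 with -2.58 to -2.05 at its other 3 probe sets. Of 25 collagen chains 4 were higher (2.65% of all genes) and 2 lower (2.74% of all genes). Among them were COL16A1 (4.48 and 4.59 against 4.39 and 6.69) and COL1A2 (3.13 and 3.23 against 4.58 and 3.16). Both parent arrays of COL1A2 were below log2 4, so the parent could not show a fall. Markers of the mesenchymal state had 4 of 26 higher (2.65% of all genes) and 0 lower (2.74% of all genes). The 4 were led by TGFBI, a matrix protein induced by TGF-beta, with 7.39 and 9.35 against 5.0 and 8.73.

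**Figure D4:**
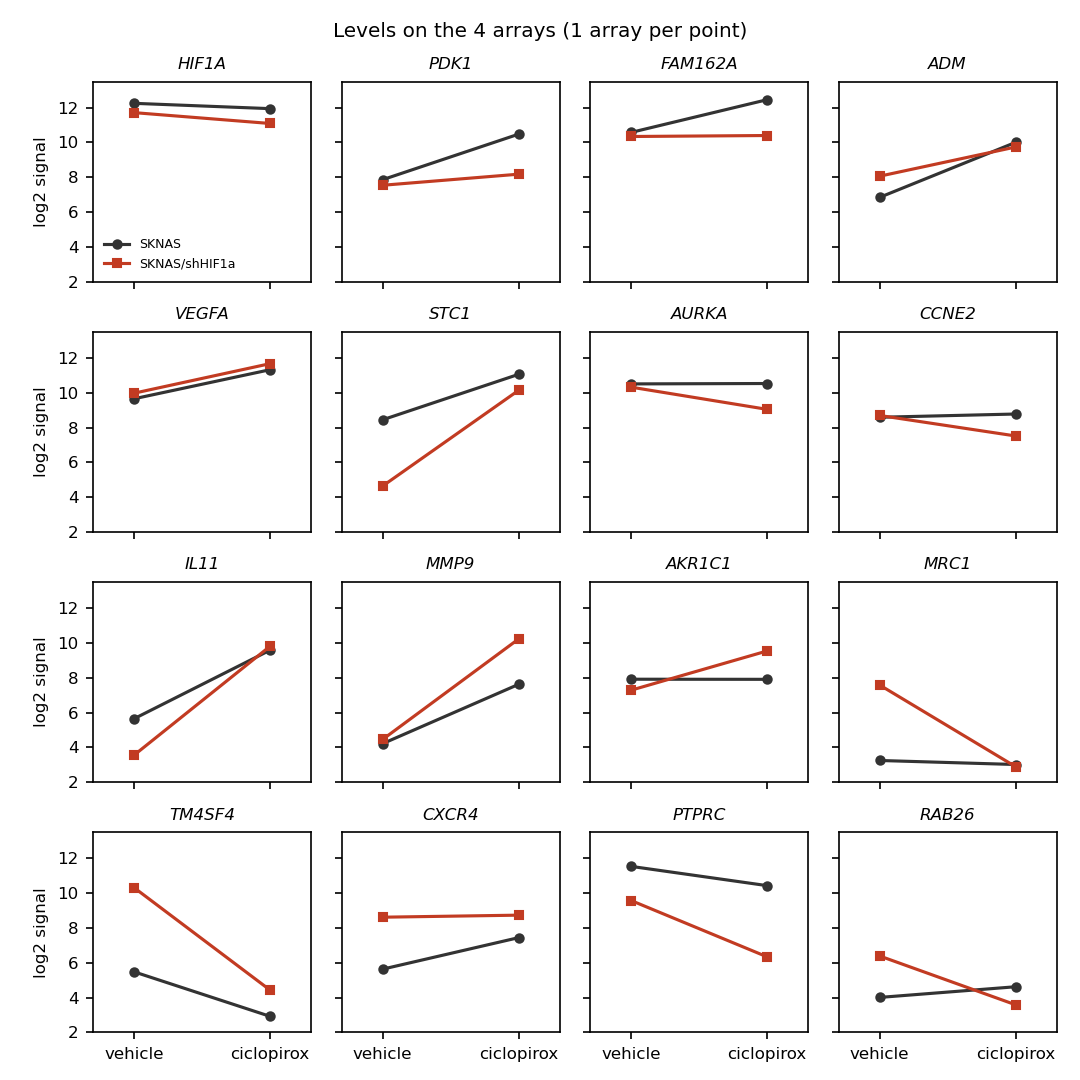
Log2 signal of 16 genes on the 4 arrays, vehicle at left and ciclopirox at right of each panel, with SKNAS in black and SKNAS/shHIF1a in red and 1 array per point. PDK1 and FAM162A start together and separate under ciclopirox, ADM and MRC1 start apart and meet, and MMP9 starts together and rises further in the derivative.

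Targets of NRF2, the factor that induces antioxidant and detoxifying enzymes, had the highest median of the lists, 0.51. Of 20, 16 were above 0 (50.4% of all genes) and 2 were higher by 2-fold (2.65% of all genes). The median response was -0.11 in SKNAS and 0.38 in SKNAS/shHIF1a. The 2 were the aldo-keto reductases AKR1C1, with levels of 7.91 and 7.91 in the parent and of 7.28 and 9.54 in the derivative, and AKR1C2, with 7.64 and 7.38 against 6.82 and 8.65. These genes are near-identical copies, so their probe sets may share signal. The other 2 probe sets of AKR1C1 gave differences of 0.18 and 1.94. SRXN1, which repairs peroxiredoxins, had responses of -0.36 and 0.58, and TXNRD1, thioredoxin reductase, a difference of 0.72. NFE2L2, the gene of NRF2 itself, had a difference of -0.30.

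Iron handling genes were higher in 3 of 18 (2.65% of all genes) and lower in 0 (2.74% of all genes), with a median of 0.32. SLC25A37, the mitochondrial iron importer mitoferrin, had levels of 8.02 and 8.87 in SKNAS and of 7.48 and 10.08 in SKNAS/shHIF1a. The difference was 1.75, and its other 8 probe sets gave 0.74 to 1.67. STEAP3, an endosomal iron reductase, had 5.89 and 5.40 against 4.65 and 5.57, with -0.10 at its other probe set, and SLC39A8, a metal ion importer, 9.53 and 9.66 against 8.87 and 10.21, with -0.40 and 1.6 at its other 2 probe sets. TFRC, the transferrin receptor, which cells raise when iron is short, had responses of 0.76 and 1.02.

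Stress genes were lower in some lists and higher in others. In the integrated stress response, which follows amino acid lack and mitochondrial damage, 4 of 27 were lower (2.74% of all genes) and 0 higher (2.65% of all genes). The derivative stood above the parent already under vehicle, with a median gap of 0.97. INHBE, an activin subunit, had levels of 2.57 and 2.83 in SKNAS, near background, and of 8.01 and 5.96 in SKNAS/shHIF1a. PCK2, the mitochondrial PEP carboxykinase, had 6.30 and 6.47 against 7.03 and 5.62. NUPR1, a stress-induced nuclear protein, had 3.09 and 3.46, near background, against 5.62 and 4.66. Among 25 targets of p53, 2 were higher (2.65% of all genes) and 1 was lower (2.74% of all genes). GDF15, a stress hormone, had 4.27 and 5.41 against 6.21 and 8.78, a difference of 1.43. PLK3, a stress-activated kinase, was also higher at 1.20. TP53I3, a quinone reductase, had 8.73 and 7.87 against 10.22 and 7.94, a difference of -1.42. In the BCL2 family, which governs cell death, 3 of 18 were higher (2.65% of all genes). These were BCL2A1, and the death-promoting members BIK (6.24 and 6.51 against 3.17 and 5.15) and BMF (4.17 and 4.90 against 4.11 and 6.45).

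Neuropeptide and hormone genes were lower in 7 of 17 described (2.74% of all genes) and higher in 0 (2.65% of all genes), with a median of -0.78, or 0.47 with arrays scaled to the poly-A transcripts. CALCB, a calcitonin gene-related peptide, fell in both lines, from 6.38 to 4.36 in SKNAS and from 9.31 to 4.46 in SKNAS/shHIF1a, so the lines met under ciclopirox. ADCYAP1, the peptide PACAP, had 3.72 and 3.30, near background, against 7.74 and 5.74. UTS2, the vasoactive peptide urotensin, had 6.84 and 9.04 against 2.92 and 3.30, a rise in the parent at a gene near background in the derivative. The other lower members were CALCA, ADM, CRH, the corticotropin-releasing hormone, and NMU, neuromedin U. Among 19 noradrenergic identity genes 2 were lower (2.74% of all genes), the secretory granule proteins SCG3 (-1.16) and CHGA (-1.11). These values become 0.091 and 0.14 with arrays scaled to the poly-A transcripts. DCX, a protein of migrating neurons, had 3.67 and 3.93 against 6.89 and 8.28. It was the 1 higher member of 20 neuronal cytoskeleton genes (2.65% of all genes).

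Markers of other cell types also moved. PTPRC, the leukocyte antigen CD45, had levels of 11.53 and 10.42 in SKNAS and of 9.57 and 6.33 in SKNAS/shHIF1a, a difference of -2.13 with -2.39 and -1.89 at its other 2 probe sets. MRC1, the mannose receptor of macrophages, had 3.25 and 3.02 against 7.58 and 2.89, a difference of -4.46. Of 16 lymphoid and myeloid markers on the array 6 were described, CD4 and CD79A stayed between 3.60 and 4.04 on the 4 arrays, and CD68, a macrophage protein, rose in both lines, from 3.41 to 4.45 and from 3.06 to 4.30. The list median was -0.77, or 0.49 with arrays scaled to the poly-A transcripts. Of 11 endothelial markers 7 were described, with a median difference of 0.23 and 4 above 0 (50.4% of all genes). EMCN, endomucin, had 3.78 and 3.47, near background, against 6.74 and 3.77, while VWF stayed between 2.82 and 3.19. PECAM1, the most positive member, had 3.06 and 3.77 against 3.97 and 5.46. Its difference was 0.77, with 0.37 at its other probe set. Of 15 epithelial markers on the array 9 were described, with KRT7 higher by 2.42 (3.20 and 5.33 against 2.79 and 7.34), KRT8 lower by -1.47 and EPCAM between 3.05 and 3.34. Both vehicle arrays of KRT7 and of KRT8 were below log2 4, near background. Of 8 Schwann cell and glial markers on the array 2 were described, both below log2 4 on all 4 arrays. The part of other cells in these values was not tested.

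The larger rises with the greatest differences were of genes with low vehicle levels in both lines. HSD11B1, which regenerates active cortisol, had levels of 3.22 and 4.23 in SKNAS and of 3.72 and 8.41 in SKNAS/shHIF1a, a difference of 3.69, with both vehicle arrays near background. FGF7, a growth factor for epithelial cells, had 2.71 and 3.61 against 3.38 and 7.45. TNFRSF4, also called OX40, a receptor found on T cells, had 3.11 and 3.58 against 3.62 and 7.22. SIGLEC15, a lectin of osteoclasts and macrophages, had a difference of 3.36 and NFATC2, a calcium-controlled transcription factor, of 3.11. In NB1691 and SKNBE2 the response of these 5 genes lay between -0.15 and 0.60.

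The 6 genes with the greatest differences among the larger falls were all higher in the derivative under vehicle. TM4SF4, a membrane protein of the tetraspan family, had levels of 5.48 and 2.92 in SKNAS and of 10.31 and 4.42 in SKNAS/shHIF1a, and it fell by 2.56 in the parent and by 5.88 in the derivative. PROM1, the stem cell antigen CD133, had 2.69 and 2.55 against 8.92 and 5.17, FGFBP2, a secreted binding protein, 3.69 and 3.06 against 8.13 and 3.89, and TRHDE, an enzyme that breaks down thyrotropin-releasing hormone, 3.51 and 3.60 against 7.24 and 4.10. For PROM1, FGFBP2, TRHDE, MRC1 and the long non-coding RNA LINC01088 both arrays of the parent lay below log2 4, so the parent could not show a fall.

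Smaller rises outside the HIF list were seen for PAEP, the secreted glycodelin, with levels of 3.52 and 6.35 in SKNAS and of 3.29 and 3.65 in SKNAS/shHIF1a, and for LY6K, a membrane-anchored protein, with 4.12 and 6.77 against 2.85 and 3.15. PDGFRL, a receptor-like protein, had 5.40 and 7.39 against 7.44 and 7.06. The 12 HIF targets in this class of 58 are those already named apart from EGLN3 and ZNF395. Smaller falls were led by RBM24, an RNA-binding splicing factor, which had 6.72 and 4.60 in SKNAS and 8.29 and 8.14 in SKNAS/shHIF1a, a difference of 1.97. TFAP2B, a transcription factor of sympathetic neurons, had 9.62 and 7.96 in the parent and 2.65 and 2.65 in the derivative, so the derivative was near background on both arrays. PPP1R16B, B3GALNT1 and CORIN were also at or below 3.48 on both arrays of the derivative, while CBLN2 had 6.02 and 4.23 against 4.88 and 4.84.

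Among the opposite responses, RAB26, a GTPase of secretory vesicles, had levels of 4.01 and 4.62 in SKNAS and of 6.39 and 3.58 in SKNAS/shHIF1a, a difference of -3.42, and its other probe set gave -2.19. F3, tissue factor, which starts blood clotting, had 4.99 and 5.80 against 7.58 and 6.17, and FRZB, a secreted antagonist of Wnt, 3.68 and 4.36 against 7.71 and 6.21. BEND7, a BEN domain protein, had 6.08 and 4.65 in the parent and 3.76 and 4.66 in the derivative, a difference of 2.33. For RAB26, F3, FRZB and BEND7 the lines were further apart under vehicle than under ciclopirox.

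Lists without a member past a 2-fold difference were the histone demethylases and the Myc targets named above, 19 chaperones of the endoplasmic reticulum, 17 cholesterol synthesis genes, 22 respiratory chain genes, 20 cytosolic ribosomal proteins, 22 housekeeping genes and the glial markers (0 each). Their medians lay between -0.12 and 0.16, against 0.00 over all genes, of which 5.39% were past a 2-fold difference.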

How the data were processed

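Total RNA was labelled with a 3' IVT Express kit and hybridized to Affymetrix arrays, per the labels' protocols. The deposited values are log2 signals per probe set, made by the authors with RMA, per the submitters' processing notes. The software version is not given in the sources used here, and no scaling was added. Because RMA makes the arrays' distributions alike, a change shared by all transcripts would not be visible.

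Of 54715 probe sets, 102 were array controls, 40914 carried 1 gene symbol in the platform annotation, 864 several and 12931 none. For each gene the probe set with the highest mean over the 8 arrays was used, and the gene was kept if that mean was at or above log2 3.208, the 40th percentile over probe sets. A larger rise or fall needed a 2-fold response in the derivative, a smaller one a 2-fold response in the parent, and an opposite response 0.5 log2 in each line with different signs, all with a 2-fold difference between the lines. With 1 array per line and treatment, precision is limited by the number of arrays, and no spread between replicates was available.

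The members and the 38 gene lists (822 of 868 entries matched on the array, 748 described) were chosen with earlier results of these data known, so no list is independent evidence of its direction. Genes were named by rule: the 6 with the greatest difference in each larger and smaller class and the 4 in each opposite class, leaving out genes with another probe set of the other sign, the most positive and most negative member of each list, and a fixed set around HIF, Myc and iron. Other genes named are list members that were chosen after their values were seen. Some list genes are not reported here. The classification code was run on simulated arrays with little noise and differences well past 2-fold, without opposite falls. That run does not measure error near the 2-fold limit. Alternatives were other filters, other probe set choices, 3 normalizations and other folds, and scaling to the poly-A controls and the log2 4 background level were chosen after seeing the data. Python 3.11.15, NumPy 2.4.6, pandas 2.3.3 and Matplotlib 3.10.9 were used.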

Additional observations from a re-analysis of the deposited data

Results flagged for a closer look

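Responses of opposite sign, of at least 0.5 log2 in each line, were seen in 73 genes, and the 8 given here are those with the greatest difference, 4 in each direction, among genes whose other probe sets all had the same sign. With 1 array per line and treatment the difference was not tested. The values are differences in log2 response, derivative minus parent. Higher in the derivative were BEND7 (2.33), the small nucleolar RNA host gene SNHG3 (1.72), TRIM36, a ubiquitin ligase (1.64), and TMEM204, a membrane protein of cell junctions (1.52). SNHG3 went from 6.47 to 5.72 in the parent and from 5.18 to 6.14 in the derivative, and the other probe sets of TRIM36 and TMEM204 gave 0.09 and 0.03. Lower were RAB26 (-3.42), NRSN1, a neuronal vesicle protein (-2.83), F3 (-2.22) and FRZB (-2.18). NRSN1 went from 2.38 to 3.09 in the parent, near background, and from 4.98 to 2.86 in the derivative.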

How the results depend on the processing

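Centring the arrays, quantile normalization and a running median against level left all 8 counts and all 38 list medians close to their values. With arrays scaled to the poly-A controls, 10903 genes were higher and 23 lower by 2-fold, and the classes held 8025 larger rises, 14 larger falls, 4 smaller rises, 115 smaller falls and 1157 opposite rises and 2 opposite falls in the derivative. The scaling adds 1.25 to the median gene and to each list median, which gave 0.70 for HIF targets, 0.61 for collagen-modifying enzymes, 0.47 for neuropeptides, 0.71 for DNA replication, 0.28 for mitosis, 1.76 for NRF2 targets and 0.49 for lymphoid and myeloid markers. It turned MYCL to 0.24, IL1A to 0.17, PTGFR to 0.12, SCG3 to 0.091 and CHGA to 0.14. With every probe set counted alone, 782 were higher and 653 lower, with 528 larger rises, 359 larger falls, 63 smaller falls and 51 opposite rises, because more features are counted. A 4-fold difference left 58 higher and 44 lower, with 56 larger rises, 32 larger falls, 6 smaller rises, 0 smaller falls, 2 opposite rises and 6 opposite falls. A 1.5-fold difference gave 1159 higher and 1357 lower, with 476 larger rises, 414 larger falls, 125 smaller rises and 70 smaller falls. Averaging the probe sets of each gene gave 13 opposite rises, 33 opposite falls, a median of -0.45 for HIF targets and of -0.45 for neuropeptides. Without a level filter the medians were -0.29 for collagen-modifying enzymes, -0.21 for neuropeptides and -0.29 for lymphoid and myeloid markers. With a 60th percentile filter they were -0.60 for neuropeptides and -1.50 for lymphoid and myeloid markers, and with probe set and filter from the 4 arrays -0.29 for collagen-modifying enzymes. The cause was not tested where none is given. No paired analysis was possible because each line and treatment has 1 array, and leaving out an array leaves no difference to compute. Signals near background limit what a fall can show.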
